A study of Canis lupus familiaris with 2 samples.

Results

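The receptors described here are the integrin subunits that bind fibronectin, vitronectin and other ligands carrying the peptide motif Arg-Gly-Asp (RGD), or that bind fibronectin through other sequences, together with the adaptor ILK. The 10 genes are ITGA4, ITGA5, ITGA8, ITGA9, ITGAV, ITGB3, ITGB5, ITGB6, ITGB8 and ILK. They were chosen by name, as every probe set on a canine expression array whose annotation held 1 gene symbol and whose symbol was in that set. This gave 26 probe sets of 29254 with 1 symbol, and 10 genes of 15115. ILK is not an integrin but the pseudokinase that binds the cytoplasmic tails of beta subunits, so 9 of the 10 are receptor subunits.

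Both subclones, J3T-1 and J3T-2, descend from 1 canine glioma cell, and they were reported to invade tissue and to induce vessels differently. The labels name no treatment and no introduced allele, both were grown in the same serum-containing DMEM, and each stands for 1 clone. Total RNA of each was hybridized to 1 array, so every value is a single measurement, and no test, p-value or replicate SD could be had. The comparison asks which of these receptor genes differ in transcript level between the subclones in culture.

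An integrin is a pair of 1 alpha and 1 beta chain, and the pair decides which ligand is bound. ITGA5 pairs with ITGB1 alone and makes the main fibronectin receptor, while ITGAV pairs with ITGB1, ITGB3, ITGB5, ITGB6 or ITGB8 to make receptors for vitronectin, fibronectin and latent TGF-beta. Chains must pair in the endoplasmic reticulum to reach the surface, so a transcript level is not a receptor level. In gliomas these receptors are known as attachment points to vessel walls and matrix, and ITGAV with ITGB3 or ITGB5 has been a drug target.

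Values are linear MAS5 signal intensities, read against a floor set at each array's median, 19.0 in J3T-1 and 22.0 in J3T-2. A gene counted as measured when its brightest probe set lay above the floor on at least 1 array, which held for 9433 genes. The median log2 ratio of those genes, J3T-2 over J3T-1, was 0.17. The members' ratios, by their brightest probe sets, are therefore also given relative to that shift, and those of other genes mostly are not. The signals of different probe sets are not on a shared scale, and levels are compared only between the subclones. SOX2, NES, VIM and PDGFRA, of 6 neural and glioma markers on the array, were above the floor on both arrays, and GFAP and S100B were at the floor on both. Epithelial markers were at the floor on both arrays for 4 of 4, endothelial markers for 6 of 8, with summed signals of 57.8 and 49.3 over the other 2, and leukocyte markers for 5 of 7 (39.6 and 39.3 over the other 2). Of 4 platelet markers, GP9 alone was above the floor (50.8 and 65.7), while ITGA2B, GP1BA and GP6 were at it. A part of these other cells in the results was not tested.

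Of the 10 genes, 7 were measured and 3 were at the floor on both arrays. ITGA5 was higher in J3T-1 by over 2-fold and ITGB3 was higher in J3T-2 by over 2-fold, the other 5 lying within 2-fold. Over all measured genes, 3.49% were called towards J3T-1 and 7.28% towards J3T-2 by the same rule, 10.8% in all. The 2 of 7 make 28.6%, a share that rests on 2 genes. The members were chosen with earlier results of these data known, so setting these shares side by side is not a test. At the gene level ITGA5, ITGB5 and ITGAV had the higher signal in J3T-1, and ITGB3, ITGB8, ILK and ITGB6 in J3T-2. The median log2 ratio of the 7 was 0.37, or 0.20 relative to all genes, and it described no common shift, since the ratios ran from -2.04 to 2.70. That median is the ratio of ITGB6 itself, whose signals were only 1.09 times the floor in J3T-1 and 1.22 times in J3T-2. Fewer transcripts per cell and fewer cells carrying a transcript cannot be told apart in RNA from a whole culture.

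**Figure D1:**
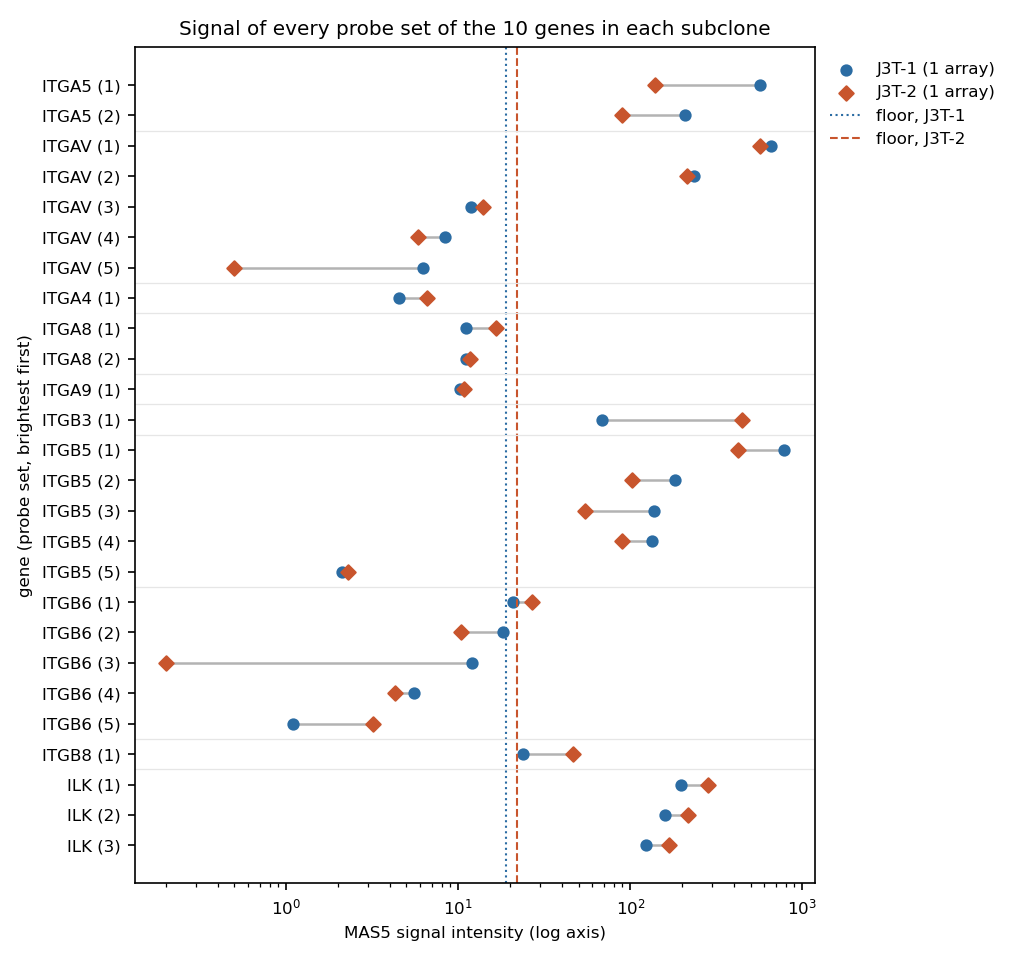
MAS5 signal (log axis) of each of the 26 probe sets of the 10 genes in J3T-1 (blue circles) and J3T-2 (orange diamonds), 1 array each and no error bars; vertical lines mark the floors of 19.0 and 22.0. Both ITGA5 probe sets lie further right in J3T-1, the ITGB3 probe set lies further right in J3T-2, and 12 probe sets lie left of both floors.

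Among the alpha chains, ITGA5 differed most. ITGA5 encodes the chain that recognises the RGD loop of fibronectin together with its synergy site. Its brighter probe set read 570.4 in J3T-1 against 139 in J3T-2. Its other probe set, which carries the _s_at suffix for probes that can match several transcripts, had 207 and 89.6. Both probe sets were well above the floor on both arrays and both were higher in J3T-1. The difference was 4.11-fold by the first and 2.31-fold by the second, or 4.62-fold and 2.60-fold after centring on the median of all genes. The log2 ratios of -2.04 and -1.21 lay 0.83 apart, a wider gap than in 93.3% of the 4580 genes with several probe sets that cleared both floors. Their direction was shared, but they disagreed on the size of the ITGA5 difference. The gap is a technical spread, and with 1 array each the uncertainty of the subclone difference is not known.

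ITGAV, the chain shared by the vitronectin receptors and the activators of latent TGF-beta, was bright in both subclones and differed little. Its brightest probe set read 658 in J3T-1 against 566 in J3T-2, which is 1.16-fold higher in J3T-1. The second gave 234 and 215, or 1.09-fold. Their log2 ratios, -0.22 and -0.13, lay 0.09 apart, closer than the probe sets of most genes. The other 3 ITGAV probe sets were at the floor on both arrays, with signals of at most 11.9 in J3T-1 or 13.9 in J3T-2, and carry no ratio. After centring, the brighter 2 were 1.30-fold and 1.23-fold higher in J3T-1. ITGA5 and ITGAV thus changed unequally, with log2 ratios 1.82 apart by their brightest probe sets. The second ITGA5 probe set, at -1.21, lies closer to ITGAV.

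The other 3 alpha chains were at the floor on both arrays. ITGA4, which binds an alternatively spliced segment of fibronectin and the vascular adhesion molecule VCAM1, read 4.5 in J3T-1 against 6.6 in J3T-2. ITGA8, the nephronectin receptor chain, had 11.1 in J3T-1 by both of its probe sets, and 11.7 and 16.5 in J3T-2. ITGA9, which binds tenascin-C and a fibronectin splice segment, had 10.2 and 10.8. No fold is given for these genes, and a level below the floor does not show that a transcript was absent.

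Among the beta chains, ITGB3 had the largest difference of the 7 measured members. ITGB3 pairs with ITGAV in the classical vitronectin receptor of angiogenic endothelium and many invasive tumours, and with ITGA2B on platelets. Its single probe set read 68.4 in J3T-1 against 446 in J3T-2, that is 3.6 and 20.3 times the floor. This is 6.52-fold higher in J3T-2, or 5.81-fold after centring. Only 49 of the 9433 measured genes, ITGB3 among them, had a log2 ratio as high as its 2.70, which is 0.52%. Among the 943 genes of like brightness, 0.64% reached it, and 7.0% were called towards J3T-2. The ITGB3 value rests on 1 probe set with the _s_at suffix, and with such probe sets left out the gene has no value and no member is called towards J3T-2. Its platelet partner ITGA2B was at the floor, with 5.4 and 5.7.

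ITGB5, the other vitronectin receptor beta chain, went the opposite way. Its brightest probe set read 781 in J3T-1 against 425 in J3T-2. The next 3 had 182 and 102, 138 and 54.6, and 133 and 89.3, while the last was at the floor on both arrays (2.1 and 2.3). All 4 above the floor were higher in J3T-1, by 1.84-fold, 1.78-fold, 2.53-fold and 1.49-fold in that order. The mean log2 ratio of the 4 was -0.91 ± 0.32 (SD over probe sets, a technical spread). By its brightest probe set ITGB5 lay just under 2-fold, and after centring it came to 2.06-fold, so that 2 members were then called towards J3T-1 and 1 towards J3T-2, against 4.62% and 4.98% of all genes. Quantile normalization and loess also gave 2.

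The log2 ratios of ITGB3 and ITGB5 lay 3.58 apart, so that the balance between the 2 transcripts differed 12.0-fold between the subclones. ITGAV, the alpha chain that both can share, differed by 0.22 in log2. Against ITGAV, ITGB3 was 7.58-fold higher in J3T-2, and ITGB5 was 1.58-fold higher in J3T-1. These are ratios of changes and do not say which beta chain was the more abundant in either subclone.

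ITGB8 and ITGB6 pair with ITGAV and are best known for freeing active TGF-beta from its latent form, ITGB8 in brain and ITGB6 in epithelia. The single ITGB8 probe set read 23.9 in J3T-1, near that array's floor, and 46.5 in J3T-2. The ratio was 1.95-fold towards J3T-2, or 1.73-fold after centring. Of the 943 genes of like brightness, 17.7% had a ratio as high. For ITGB6, 1 of 5 probe sets was above the floor, and barely so, with 20.8 in J3T-1 against 26.8 in J3T-2. The next brightest had 18.3 and 10.4, on the floor side of both arrays and in the other direction. The ITGB6 values show no level clear of background in either subclone.

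ILK, which links beta chain tails to actin through the parvins and LIMS1, was 1.44-fold, 1.37-fold and 1.35-fold higher in J3T-2 by its 3 probe sets. Their signals were 196, 159 and 124 in J3T-1 against 283, 218 and 167 in J3T-2. The 3 log2 ratios lay within 0.10 of each other, and relative to all genes they were 0.36, 0.29 and 0.26. Of all measured genes, 22.7% had a log2 ratio as high as that of ILK. All 3 probe sets carry the _s_at suffix.

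**Figure D2:**
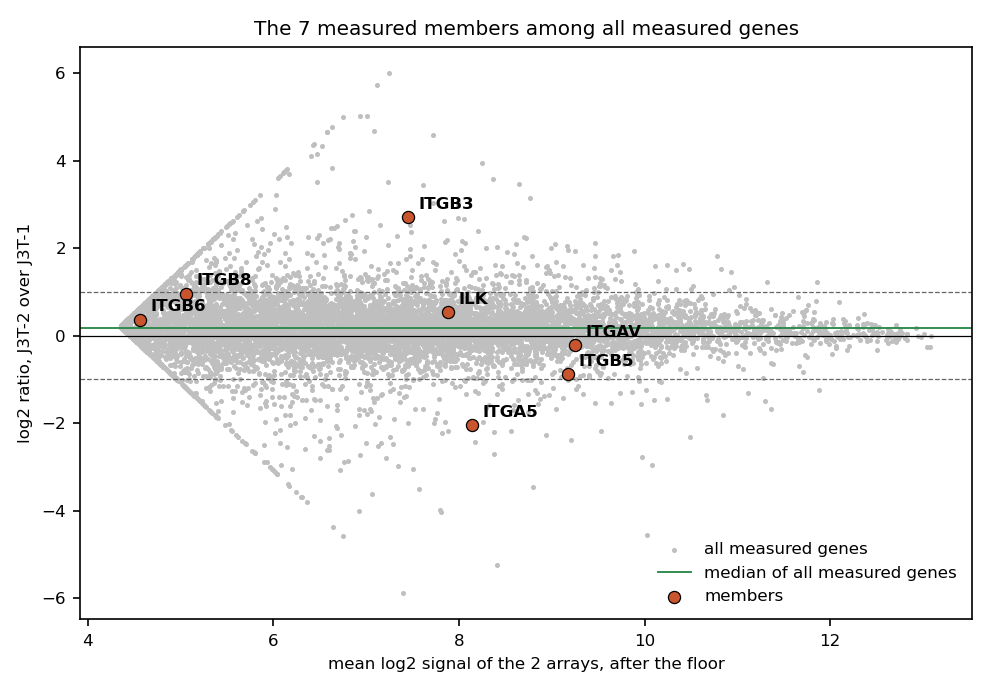
Log2 ratio (J3T-2 over J3T-1) against the mean log2 signal of both arrays for all 9433 measured genes (grey) and the 7 measured members (orange, labelled), each by its brightest probe set; dashed lines mark 2-fold and the green line the median of all genes, 0.17. ITGB3 at 2.70 and ITGA5 at -2.04 lie outside the dashed lines, ITGB5 and ITGB8 just inside them, and ITGB6 at the dim end.

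The probe sets of 1 gene give the only spread that these arrays hold, a technical one. Over the 4580 genes with several probe sets above the floor, the SD of the log2 ratio was 0.26 (root mean square). ITGA5 (0.59) and ITGB5 (0.32) spread more than that, and ITGAV (0.06) and ILK (0.05) less. In each of the 4 genes, every probe set that cleared both floors had the same direction. ITGB3 and ITGB8 have 1 probe set each, and ITGB6 has 1 above the floor, so no such spread exists for them.

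The subunits that pair with these chains were read for comparison. ITGB1, the common partner of ITGA4, ITGA5, ITGA8, ITGA9 and ITGAV, read 3336 in J3T-1 against 2128 in J3T-2, or 1.57-fold higher in J3T-1. Its other probe set was at the floor (1.4 and 6.9). By the brightest probe sets, the log2 ratio of ITGA5 lay 1.39 below that of ITGB1, a 2.62-fold difference in their balance between the subclones. The second ITGA5 probe set, at -1.21 against -0.65 for ITGB1, gives a smaller difference. The ITGB1 value itself rests on a single _s_at probe set. ITGB7, the leukocyte partner of ITGA4, was dim, at 40.0 and 45.4, and its 3 probe sets disagreed in direction.

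The integrin subunits outside the set, mostly laminin, collagen and leukocyte receptors, were called towards J3T-1 only. Of 14 listed, 8 were measured, 3 were called towards J3T-1 and 0 towards J3T-2, against 3.49% and 7.28% of all genes. The 5 not called, named after their values were seen, were mixed. ITGB4 (21.8 and 40.8, 1.87-fold) and ITGA6 (1.25-fold, its dimmest probe set the other way) were higher in J3T-2. ITGA1 (at least 1.27-fold) and ITGAE (1.02-fold) were higher in J3T-1, and ITGA10 has no fold. ITGA3, a laminin receptor chain, read 191 against 4.3, a bound of at least 8.69-fold towards J3T-1, by a single _s_at probe set. The collagen receptor chain ITGA2 had 852 and 130.1 (6.55-fold), with 7.15-fold by a further probe set, and the muscle laminin receptor chain ITGA7 had 126 and 33.6 (3.76-fold). Without _x_at and _s_at probe sets ITGA3 was not called, which left 2 towards J3T-1. ITGA5 went with the called alpha chains in direction, and at this floor ITGB3 was the 1 integrin subunit called towards J3T-2 in either set. With the floor at the 25th percentile, 13 of the other subunits had a value, 4 called towards J3T-1 and 3 towards J3T-2. At that floor 6.49% and 11.3% of all genes were called in these directions. The added calls, ITGAL towards J3T-1 and ITGA11, ITGAM and ITGB2 towards J3T-2, were at the reported floor on both arrays. The median log2 ratio was -0.35 relative to all genes over the 8 measured and 0.20 over the 7 members, a difference that was not tested. The members' median is the ratio of ITGB6, which lay barely above the floor.

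Ligands of these receptors were called in both directions. Of 33 on the array, 18 were measured, of which 2 were called towards J3T-1 and 7 towards J3T-2. Their median log2 ratio was 0.05 relative to all genes. Over all measured genes, 3.49% and 7.28% were called in these directions, which also stands beside the counts of the lists below. After centring, 2 and 5 ligands were called, against 4.62% and 4.98% of all genes. The lists were chosen with earlier results known, so no excess was tested. TGFBI, an RGD-bearing matrix protein that binds ITGAV receptors, read 12.6 in J3T-1 against 231 in J3T-2, a bound of at least 12.1-fold. The elastic-fibre protein FBLN5 had 40.3 and 199.5 (4.95-fold, and over 6-fold by both other probe sets), the fibrillin FBN2 had 8.3 and 87.6 (at least 4.61-fold), and IGFBP2, an RGD-bearing growth factor binder, had 5.7 and 64.1 (at least 3.37-fold).

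On the other side, CCN2, a matricellular ligand of ITGAV and ITGA5 receptors, read 3199 in J3T-1 against 648 in J3T-2 (4.94-fold, with 9.34-fold from the second probe set). TNC, the tenascin bound by ITGA9, had 132 and 55.6 (2.37-fold). TNC and EDIL3 were not called without _x_at and _s_at probe sets, which left 1 ligand towards J3T-1 and 6 towards J3T-2. The other 3 called towards J3T-2 were EDIL3 (2.36-fold), FBN1 (2.19-fold) and SVEP1 (2.13-fold), named to complete the count, and FBN1 and SVEP1 fell under 2-fold after centring. Fibronectin and vitronectin were singled out after their values were seen. FN1, fibronectin itself, had 3784 and 3338 by its brightest probe set, and its 4 probe sets ranged from 1.13-fold to 2.20-fold towards J3T-1. All 4 VTN probe sets were at the floor on both arrays, the highest at 2.3 in J3T-1 against 10.0 in J3T-2.

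The genes around latent TGF-beta, which ITGAV receptors activate, held 2 called towards J3T-2 and 0 towards J3T-1 among 8 measured. TGFB2 read 292 in J3T-1 against 1138 in J3T-2 (3.90-fold, with 3.17-fold from the second probe set). The binding protein LTBP1, which anchors latent TGF-beta in matrix, had 40.0 and 121 (3.02-fold). TGFB1, named after its value was seen, had 88.0 and 45.0, 1.96-fold towards J3T-1, and passed 2-fold there after centring. TGFB1 and TGFB3 carry an RGD motif in their latency peptides and TGFB2 does not.

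None of the 8 measured partners of ILK and activators of integrins was called. PARVB and FERMT2 are named after their values were seen. PARVB had 32.0 in J3T-1 and 9.1, at the floor, in J3T-2, so its 1.46-fold towards J3T-1 is a lower bound. With the floor at the 25th percentile PARVB was called towards J3T-1, as were 6.49% of all genes. Among those above the floor on both arrays, FERMT2, the kindlin that binds beta tails, was nearest to the threshold. It read 864 and 1516, which is 1.75-fold higher in J3T-2. The median of the 8 was -0.09 relative to all genes.

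Of 8 measured inhibitors and recyclers, 1 was called in each direction. FABP3, a fatty acid binder that inactivates integrins, had 142.6 in J3T-1 against 25.1 in J3T-2 (5.68-fold). Its J3T-2 signal was only 1.14 times the floor, and its other probe set gave at least 8.30-fold. RCC2, a regulator of the GTPase Rac at fibronectin adhesions, was 2.13-fold higher in J3T-2, which fell under 2-fold after centring. Of 21 measured signalling genes, 2 were called in each direction and 17 lay within 2-fold. Paxillin (PXN), an adhesion scaffold that binds the ITGA4 tail, had 131 and 37.1 (3.53-fold towards J3T-1). SDC4, the syndecan that binds the heparin-binding part of fibronectin beside ITGA5, had 784 and 233 (3.37-fold towards J3T-1, with 2.96-fold and 2.57-fold from the remaining probe sets). Vinculin (VCL), which reinforces adhesions under tension, had 58.2 and 237 (4.07-fold towards J3T-2), and the paxillin partner GIT1 had 17.3 and 50.7 (at least 2.67-fold towards J3T-2), a call lost without such suffixed probe sets.

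**Figure D3:**
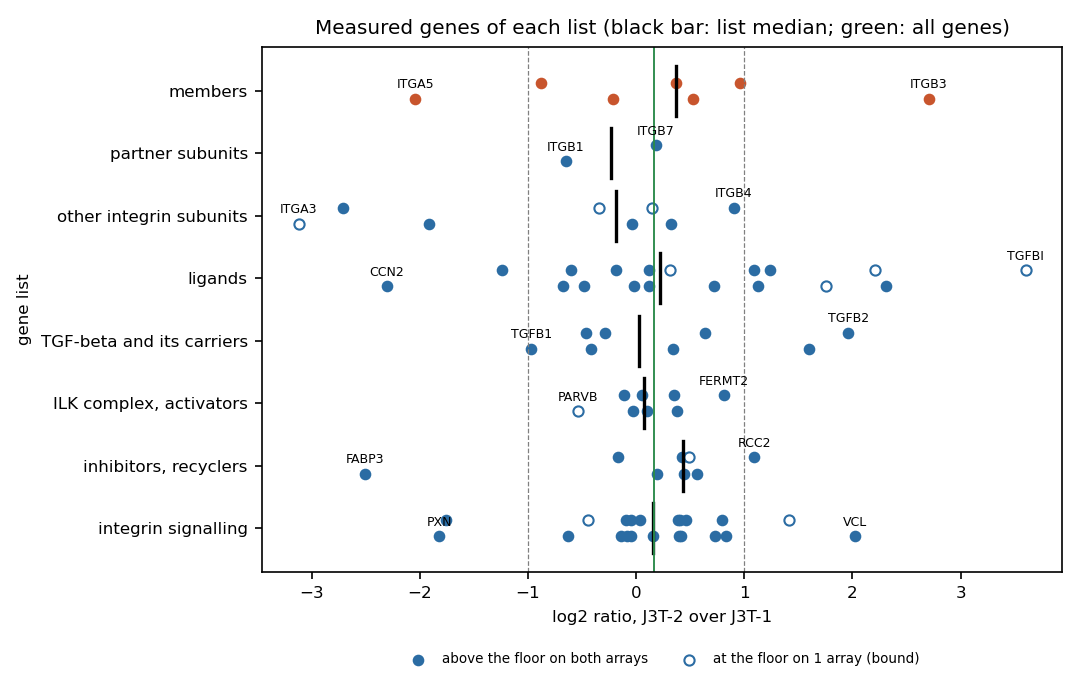
Log2 ratio (J3T-2 over J3T-1) of each measured gene, 1 point per gene, for the members (orange) and 7 related lists (blue); open points were at the floor on 1 array, black bars are list medians, dashed lines mark 2-fold and the green line the median of all genes. The members and the ligands extend past 2-fold on both sides, other integrin subunits on the J3T-1 side only, and the ILK complex on neither side.

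The members lie on 8 chromosomes of the dog, by gene number in the assembly UU_Cfam_GSD_1.0, which served only to find neighbouring genes. ITGB3 lies on chromosome 9, where the other 572 measured genes had a median log2 ratio of 0.57 and 17.1% were called towards J3T-2. Of the 20 measured genes nearest to ITGB3, 8 were called towards J3T-2 and 0 towards J3T-1, and their median was 0.77. ITGB3 lay 2.13 in log2 above the median of its chromosome, or 4.38-fold, and only 2 of the 572 were as high. Chromosome 9 had the highest median after chromosome 10, and a part of that shift in the ITGB3 value was not tested.

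ITGB8 lies on chromosome 14, the chromosome with the lowest median, -0.27 over 150 other genes. Of its 20 nearest measured genes, 4 were called towards J3T-1 and 1 towards J3T-2. Against its chromosome ITGB8 was 2.35-fold higher in J3T-2, more than the 1.95-fold of the plain ratio. ITGA5 lies on chromosome 27, whose other 229 measured genes had a median of 0.03, 2.08 in log2 above ITGA5. ITGA4, ITGAV and ITGB6 share chromosome 36, where the median was within 0.03 of 0, and ITGB5 and ILK lie on chromosomes with medians of 0.10 and 0.12.

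**Figure D4:**
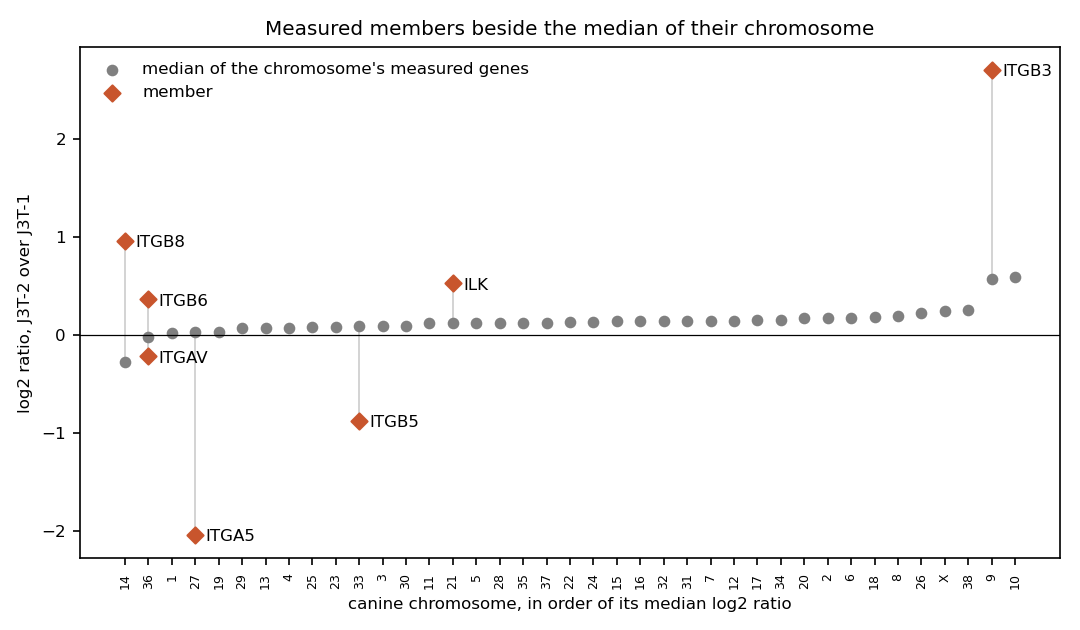
Median log2 ratio (J3T-2 over J3T-1) of the measured genes of each chromosome with at least 50 of them (grey), in order, and the ratio of each measured member (orange diamonds) joined to its chromosome. ITGB3 stands 2.13 above the raised median of chromosome 9, ITGB8 stands above the lowest median, that of chromosome 14, and ITGA5 stands 2.08 below that of chromosome 27.

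Across the processing settings that gave a value, ITGA5 ranged from -2.22 to -1.62 and ITGB3 from 2.06 to 2.70 in log2 ratio. ITGB5 stayed between -1.05 and -0.85, on either side of 2-fold, and ITGB8 between 0.65 and 0.96. ITGAV (-0.39 to -0.17) and ILK (0.36 to 0.53) kept their sign without nearing 2-fold.

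**Figure D5:**
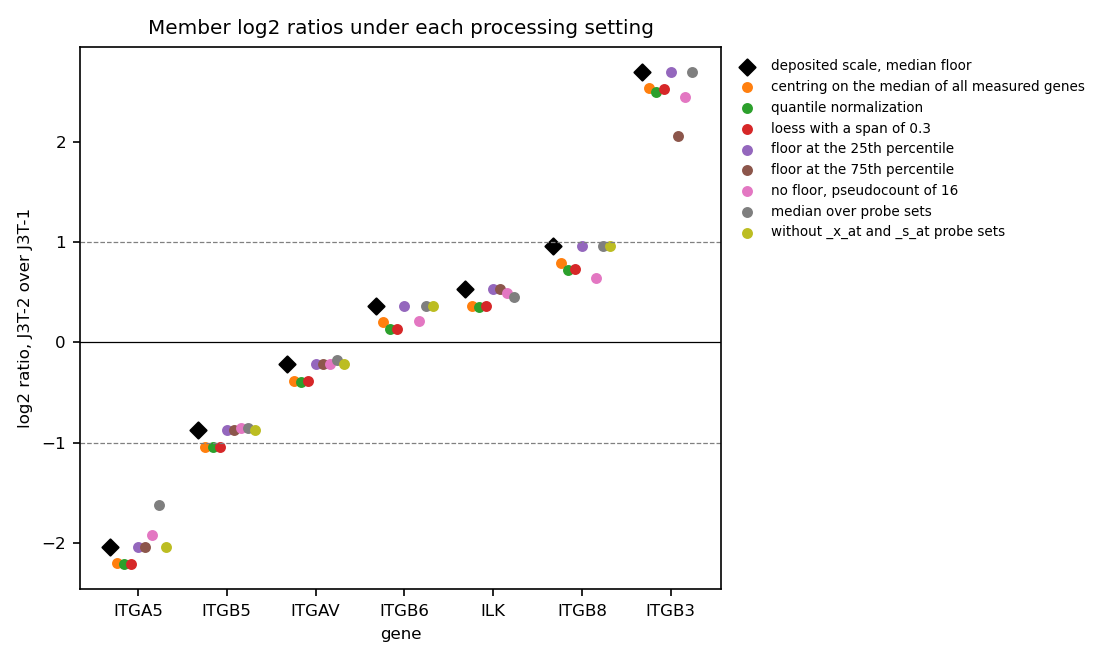
Log2 ratio (J3T-2 over J3T-1) of the 7 measured members under the reported setting (black diamonds) and 8 alternatives (coloured points, where the gene had a value); dashed lines mark 2-fold. ITGA5 lies below -1 and ITGB3 above 1 wherever they have a value, while the ITGB5 points lie on both sides of -1.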

How the data were processed

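RNA of J3T-1 and J3T-2 was measured on 1 one-colour Affymetrix canine array each, from biotin-labelled cRNA made with a 3' IVT kit, per the labels' protocols. The authors deposited MAS5 signal intensity values, per the submitters' processing notes; MAS5's version, scaling target and detection calls were not stated in the labels. The 43035 probe sets included 111 controls. The array annotation named the genes, from probe sets with a single symbol; all 10 members also matched the assembly by gene number. Signals under an array's median (controls left out) were raised to it, the probe set of highest mean log2 deposited signal stood for its gene, and ratios were taken without rescaling. A fold against the floor is a lower bound ("at least"). With 1 array per subclone, genes were called by size alone (2-fold or more). The number of arrays limits the precision.

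Members and lists were chosen with earlier results of these data known. The genes named were all members with every probe set, the pairing subunits, and up to 6 called genes per list; exceptions are marked. Neighbours were up to 10 measured genes on each side, fewer where the chromosome held fewer on that side. The 8 alternatives were 3 scalings (centring, quantile, loess of span 0.3), a floor at the 25th or the 75th percentile, a pseudocount of 16 without a floor, the median over probe sets, and leaving out _x_at and _s_at probe sets. The calculations ran in Python 3.11.15 with numpy 2.4.6, pandas 2.3.3, scipy 1.17.1, statsmodels 0.14.6 and matplotlib 3.10.9.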

Additional observations from a re-analysis of the deposited data

How the results depend on the processing

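The count of members called towards J3T-1 was 1 as reported and 2 after centring on the median, quantile normalization and loess, the added gene being ITGB5, and it was 1 under the other 5 alternatives. The count towards J3T-2 was 1, and 0 without _x_at and _s_at probe sets, because the only ITGB3 probe set is then left out. The median log2 ratio of the measured members was 0.37, and -0.22 both without _x_at and _s_at probe sets and under a floor at the 75th percentile, where 5 members had a value, so its sign depends on these settings. None of the 7 measured members changed direction under an alternative that gave it a value. ITGA4, ITGA8 and ITGA9 had a value only with the floor at the 25th percentile or with no floor. Under a floor at the 75th percentile the ligands called fell from 2 to 1 towards J3T-1 and from 7 to 3 towards J3T-2, and TNC, FBLN5, FBN2, IGFBP2, SVEP1, LTBP1, FABP3, PXN, GIT1, ITGA3 and ITGA7 were no longer called. Without _x_at and _s_at probe sets, ITGA3, TNC, EDIL3 and GIT1 lost their calls as well. Over all genes, the share called towards J3T-2 ranged from 3.61% to 11.3%, and towards J3T-1 from 2.02% to 6.49%. No paired analysis was possible because each subclone has 1 array. Signals near the floor limit ITGB8 and ITGB6 most, and no value covers the spread between cultures.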
